A study of Mus musculus with 14 samples.

Results

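The genes described here are 33 targets of type I interferon, chosen by name with earlier results of these data known. Shares of members called therefore describe the list and are no independent test. RNA was measured on Affymetrix arrays in mouse CD4+ T cells. The cells were cultured under Th17, Treg or Th1 conditions with or without acetate, which the sample labels call C2. Of the 33 genes, 31 have a probe set that carries only their symbol, against 18193 genes on the array, and 28 had enough signal to be tested, against 10916 genes in all. Isg15, an ubiquitin-like modifier, and Ifi44 have no such probe set, and Oasl2, Mx1 and Rtp4 fell below the filter on signal.

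There were 14 arrays: 3 of Th17 cultures with C2 and 3 of Th17 controls, 2 of Treg cultures with C2 and 2 of Treg controls, and 2 of Th1 cultures with C2 and 2 of Th1 controls. The CD4+ T cells came from the spleen and the peripheral and mesenteric lymph nodes of mice, and IL-2 was in every culture. Th17 cultures also received TGF-b1, IL-6, IL-1b, IL-23, IL-21, TNF-a and antibodies against IL-4 and IFN-gamma, Treg cultures TGF-b1, and Th1 cultures IL-12 and anti-IL-4, so only the Th17 cultures held an antibody against interferon gamma. C2 was given at 10 mM; the protocols of the treated Th17 arrays name acetate, those of the treated Treg and Th1 arrays name acetone, and the series' design text says that all were given sodium acetate. Culture lasted 5 days by the protocols but 6 to 7 days by the design text. The labels give no age, strain or sex of the animals, and do not say if arrays of 1 group stem from different cultures or animals, so the p-values reflect the spread among these arrays only, which may be technical.

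Type I interferons (interferon alpha and beta) are secreted proteins that bind a receptor made of IFNAR1 and IFNAR2. The receptor's kinases JAK1 and TYK2 activate STAT2, which acts with IRF9 at a DNA element called ISRE in front of target genes, many of which block viral replication. IRF7 and IRF1 are themselves made in response to interferon and drive further transcription, and several of these genes also respond to interferon gamma through another element, called GAS.

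The promoters are shown first because the ISRE and GAS are the elements through which interferons are known to act. RefSeq promoter windows (GRCm38.p6, 250 bases before to 50 bases after a gene's first base) were at hand for 24 of the 33 members. The ISRE core was searched on both strands as GAAA, any pair of bases and GAAA again. It occurred in 12 of the 24 members, against 3.99% of all 27025 genes with a window and 3.44% of all windows. The GAS core, TTCNNNGAA with N for any base, which reads the same on both strands, occurred in 7 of the 24 members, against 9.55% of all genes and 8.30% of all windows. The next lines show stretches of the promoters of 5 members that fell with C2 in Treg cultures and hold an ISRE core, and of Irf1, which holds a GAS core. Capitals mark the match, each stretch reads along its gene, and an ISRE core on the opposite strand reads TTTC, any pair of bases and TTTC.

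Ifit1bl1, chr19:34602043-34602092, minus strand: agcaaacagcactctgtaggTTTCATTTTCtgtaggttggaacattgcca
Ifit3, chr19:34583387-34583436, plus strand: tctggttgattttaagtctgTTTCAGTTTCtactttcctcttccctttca
Oas1a, chr5:120907510-120907559, minus strand: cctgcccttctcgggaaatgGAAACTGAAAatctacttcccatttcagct
Trim12a, chr7:104315456-104315505, minus strand: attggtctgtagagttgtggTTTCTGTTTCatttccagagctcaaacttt
Trim30a, chr7:104465200-104465249, minus strand: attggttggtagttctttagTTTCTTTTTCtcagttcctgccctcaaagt
Irf1, chr11:53769904-53769952, plus strand: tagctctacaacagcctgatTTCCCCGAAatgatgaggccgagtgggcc

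Counting the gene's first base as 0, the match began at -104 in Ifit1bl1, -122 in Ifit3, -14 in Oas1a, 10 in Trim12a, -36 in Trim30a and -90 in Irf1. Ifit3 and Oas1a each hold another ISRE match, and Ifit1bl1 and Trim30a each have another annotated start with the same match. The remaining members with an ISRE core were Ifit1, Isg15, Oas3, Ifih1, Bst2, Stat2 and Rsad2. Of these, Isg15 had no probe set of its own, and the others were not called with C2 in Treg cultures. Irf7, Irf9, Irf1, Ifi209, Xaf1, Ifit2 and Ifi35 held no ISRE core in their windows, although all were called lower with C2 in Treg cultures. Absence of a core says only that these letters do not occur in the window. Whether the core goes with the C2 difference was not tested. A match is a description of the sequence and not a measured binding site.

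Before the interferon genes, the arrays were set against their labels. Il17a, the defining cytokine of Th17 cells, had signals of 3186 to 5610 in Th17 cultures with C2 and 598 to 716 in Th17 controls, against at most 15.8 on every Treg and Th1 array. Foxp3, which defines Treg cells, had signals of 52.2 and 66.0 in Treg cultures with C2 and 283 and 381 in Treg controls, against 55.3 to 108 in Th17 controls. The Treg arrays with C2 thus lay within or below the range of the Th17 controls for Foxp3, and the label Treg is used for them as a culture condition. Of the other Treg markers, Ikzf2 differed by -1.0, Il2ra by 1.5 and Ctla4 by 0.2 with C2 in Treg cultures. The sum of the 4 Treg markers was 5325 to 5727 with C2 and 4606 to 4657 in Treg controls. That of 4 Th1 markers was 9009 to 12480 in Th1 cultures with C2 and 1403 to 3688 in Th1 controls. In Treg cultures it was 2366 to 4420 with C2 and 1794 to 1954 in controls. Deposited signals were not on a common scale (trimmed means of 53.2 to 116 per array) and were quantile normalised, and every signal given is normalised. After it, the median of all genes differed with C2 by 0.01 to 0.03 on the log2 scale in the 3 subsets. The arrays carry no detection calls that were used here, so a signal of a few units cannot be told from background, and precision is limited by how few arrays there are.

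Across the 6 groups, the members were brightest in the Treg control cultures. Of the 28 members tested, 21 had their highest group mean there, against 19.4% of all genes tested, and in 19 the 2 brightest of the 14 arrays were the 2 Treg control arrays, against 7.53% of all genes. The filter used the mean over all 14 arrays, and Ifit1bl1, Ifit1 and Ifit3 reached it only with the Treg control arrays included. They enter these counts, and the comparisons with Treg controls below, by that route, so the counts describe the members and are no test. The median of the members on the log2 scale was 5.81 and 6.07 in Treg cultures with C2 and 7.93 and 7.54 in Treg controls. It was 6.00 and 5.11 in Th1 cultures with C2 and 6.12 and 6.58 in Th1 controls. In Th17 cultures it was 5.08, 5.21 and 4.98 with C2 and 5.58, 4.73 and 5.01 in controls. The 2 Treg control arrays therefore lay above all 12 others, while the Th17 arrays with and without C2 overlapped. The members with their highest group mean elsewhere were Oas3, Oasl1, Usp18, Dhx58, Bst2, Isg20 and Ifi35.

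**Figure D1:**
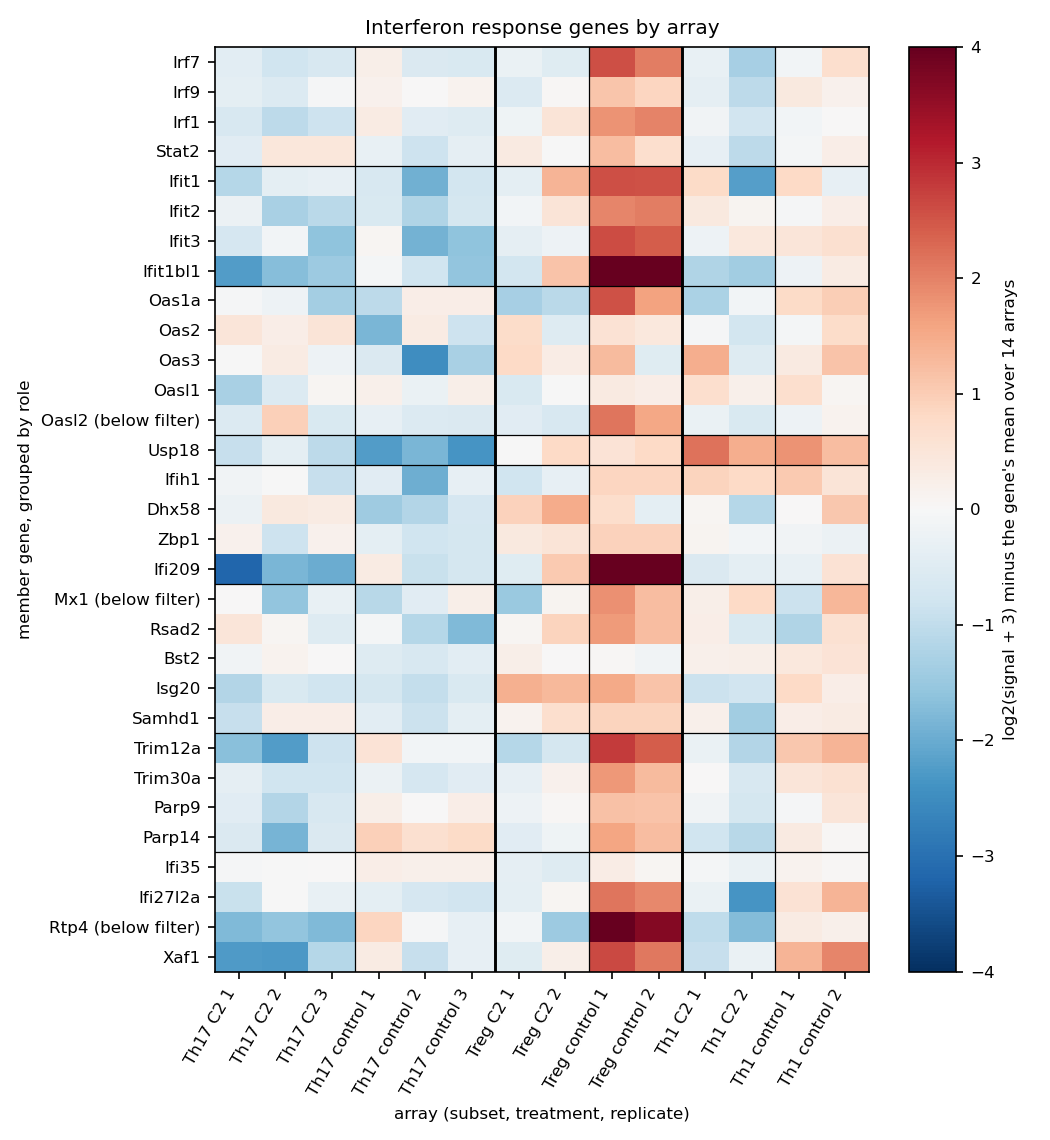
Each row is 1 of the 31 members with a probe set, grouped by role, and each column 1 of the 14 arrays; colour is log2(signal + 3) minus the gene's mean over all arrays, cut at 4 in both directions. The 2 Treg control columns are the reddest for most rows, and Usp18, Oas3, Oasl1 and Bst2 are among the rows that do not follow them.

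The question asked of C2 was whether it changes gene expression in each subset. In Treg cultures the interferon genes were broadly lower with C2: 15 of the 28 members tested (53.6%) were lower with C2 at an adjusted p under 0.05, against 5.44% of all genes. Higher calls numbered 0 in limma, against 7.04% of all genes called higher. At an unadjusted p under 0.05, 1 member was higher, and the share of all genes higher at that level was not counted. The median member differed by -1.33 (C2 minus control, log2), and the median of all genes by 0.03. Members that fell included the transcription factors Irf7, Irf9 and Irf1, 3 of 4 IFIT genes, all 4 TRIM and PARP genes, Oas1a, Ifi209, Ifi27l2a, Xaf1 and Ifi35. Adjusted p-values come from limma, adjusted by Benjamini-Hochberg across the 10916 genes. Each difference is on the log2(signal + 3) scale, which understates the change of dim genes, and the error is its standard error.

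Among the transcription factors, Irf7, the factor that amplifies interferon production, had signals of 32.4 and 27.9 in Treg cultures with C2, against 253 and 175 in Treg controls. The groups did not overlap, and the difference was -2.69 ± 0.39 (adjusted p = 0.00139). Irf1, an early target of both interferon types, had 421 and 679 with C2 and 1647 and 1859 in controls, a difference of -1.71 ± 0.30 (adjusted p = 0.00343). Irf9, the DNA-binding part of the complex that reads the ISRE, had 70.5 and 107 with C2 and 229 and 191 in controls, a difference of -1.24 ± 0.27 (adjusted p = 0.00972). Stat2, its partner, had 56.9 and 43.3 with C2 and 108 and 71.0 in controls. Its groups did not overlap either, but the difference of -0.79 ± 0.36 did not pass (adjusted p = 0.183).

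The IFIT proteins bind viral RNA and hinder its translation, and their genes lie together on chromosome 19, with Ifit2, Ifit3 and Ifit1bl1 next to each other. Ifit1bl1, an Ifit1-like gene, had 8.5 and 39.3 in Treg cultures with C2, against 560.4 and 649 in controls. Its difference of -4.78 ± 0.58 (adjusted p = 0.000505) was the lowest of all genes tested in this comparison. Ifit3 had 7.98 and 9.33 with C2 and 83.2 and 73.2 in controls, a difference of -2.80 ± 0.62 (adjusted p = 0.0111). Ifit2 had 23.5 and 38.6 with C2 and 109 and 117 in controls, a difference of -1.80 ± 0.37 (adjusted p = 0.00766). For these 3 genes every C2 array lay below both controls. Ifit1 had 9.02 and 37.2 with C2 and 90.5 and 88.0 in controls, and its wider spread kept the difference of -2.07 ± 0.84 from passing (adjusted p = 0.13). Ifit1bl1 and Ifit3 have near-identical copies in the mouse genome whose RNA these probe sets may also bind. Ifit1bl1, Ifit1 and Ifit3 were tested only because the Treg control arrays lifted their mean over the filter, so these arrays served both selection and comparison.

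**Figure D2:**
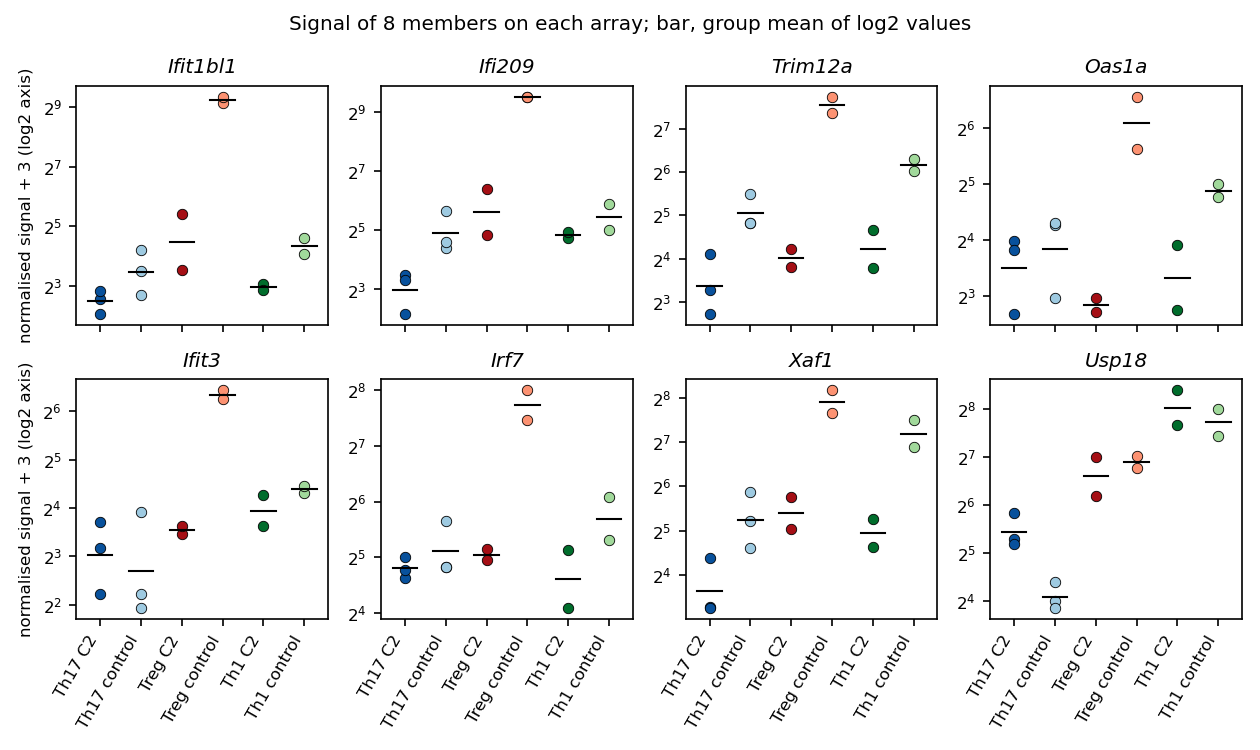
Points are the normalised signal plus 3 of 8 members on single arrays, on log2 axes that differ between panels, and bars are group means of the log2 values; groups run from Th17 C2 at the left to Th1 control at the right. Treg control stands highest in each panel but that of Usp18, where the Th1 groups do.

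The OAS enzymes make the messenger that activates RNase L. Oas1a had 3.53 and 4.76 in Treg cultures with C2 and 91.6 and 46.4 in controls, a difference of -3.26 ± 0.59 (adjusted p = 0.00387), and Oas1 paralogs may share its probe set. The remaining OAS genes tested, Oas2, Oas3 and Oasl1, did not pass, with differences of -0.38, 0.15 and -0.60. Oasl2 lay below the filter; its signals were 0.62 and 0.20 with C2 and 18.8 and 11.5 in controls, and in the fit without the filter the difference was -2.38 ± 0.48 (adjusted p = 0.00941).

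TRIM and PARP members include restriction factors and enzymes that transfer ADP-ribose. Trim12a, a relative of the retroviral restriction factor TRIM5, had 11.0 and 15.6 in Treg cultures with C2 and 211 and 161 in controls, a difference of -3.53 ± 0.44 (adjusted p = 0.000553). Trim30a had 243 and 340 with C2 and 1015 and 728 in controls (-1.57 ± 0.27, adjusted p = 0.00281). Their C2 arrays lay well under the controls, and the other probe sets of Trim12a and Trim30a were lower with C2 too, by -2.06 and -1.69. The linked genes Parp14 and Parp9 differed by -1.71 ± 0.35 (adjusted p = 0.00782) and -1.23 ± 0.27 (adjusted p = 0.00966).

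Among nucleic acid sensors, Ifi209, a member of the PYHIN family that includes DNA sensors, had 25.8 and 80.2 in Treg cultures with C2 and 717 and 724 in controls, a difference of -3.88 ± 0.55 (adjusted p = 0.0013). Its other probe set differed by -4.06. Ifih1, which encodes the RNA sensor MDA5, had 17.6 and 25.8 with C2 and 62.9 and 62.2 in controls and did not pass (-1.43 ± 0.47, adjusted p = 0.0665). Zbp1, a sensor of Z-form nucleic acid, differed by -0.47 and Dhx58, which encodes the sensor LGP2, by 1.06, and neither passed. The antiviral effectors were a group with no call: Bst2 (tetherin), Isg20 (an exonuclease), Samhd1 (a nucleotide hydrolase) and Rsad2 (viperin) differed by 0.16, 0.02, -0.48 and -0.98. Isg20 had 321 and 296 with C2 and 343 and 268 in controls, and its groups overlapped. Probe sets disagreed in size for Zbp1, whose dimmer probe set differed by -1.52, and for Samhd1, whose second brightest differed by -1.33. Mx1, below the filter, differed by -2.22 ± 0.75 in the fit without it (adjusted p = 0.106).

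Of the other induced genes, Ifi27l2a had 629 and 874 in Treg cultures with C2 and 3638 and 3121 in controls, a difference of -2.18 ± 0.50 (adjusted p = 0.0131). Xaf1, which promotes cell death, had 29.8 and 51.2 with C2 and 285 and 199 in controls, a difference of -2.52 ± 0.47 (adjusted p = 0.0045); its dimmer probe set differed by only -0.46. Ifi35 changed least among the genes called, with 844 and 750.3 with C2 and 1345 and 1141 in controls (-0.64 ± 0.14, adjusted p = 0.00881). Its dimmer probe sets differed by -0.40 and -0.36, and its call held in 7 of 10 alternative settings. Rtp4, a chaperone of receptors, lay below the filter because it was dim on all arrays but the Treg controls; its signals were 7.64 and 1.18 with C2 and 304 and 142 in controls. In the fit without the filter its difference was -4.99 ± 0.55 (adjusted p = 0.000363). Usp18, the protease that removes ISG15 and damps receptor signalling, had 70.0 and 125 with C2 and 105 and 127 in controls, and its groups overlapped.

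Without Treg control replicate 1, 6 members were called, and without Treg C2 replicate 1, 7 were. Ifi209, Ifit1bl1, Irf7, Trim12a and Trim30a were called in every fit that left out 1 array, and the other 10 lost their call in at least 1 such fit. Some other measures moved with the Treg controls as well, and some did not. Foxp3 differed by -2.43 ± 0.37 with C2 in Treg cultures (adjusted p = 0.0016), while the Treg marker Il2ra differed by 1.5. The 3' over 5' ratio of the Gapdh array control was 1.02 and 1.03 in Treg cultures with C2 and 1.22 and 1.23 in Treg controls, and 0.986 to 1.10 on the Th17 and Th1 arrays. That of the actin control overlapped, at 1.31 and 1.36 with C2 and 1.42 and 1.33 in Treg controls. On the Th17 and Th1 arrays it was 1.1 to 1.4. The 18S control had 506.5 and 816.3 with C2 and 3134 and 581.6 in Treg controls. The summed signal of 5 B cell markers was 918 and 1642 in Treg cultures with C2 and 2445 and 2788 in controls, nearly all of it Ighm, while Cd79a, Ms4a1 and Pax5 lay below the filter. That of 4 NK cell markers was 806 to 993 with C2 and 1401 to 1867 in controls, nearly all of it Klrd1 and Eomes. Ncr1 and Klrb1c lay below the filter, and each was highest on a Treg array with C2. The sum of 4 CD4 T cell markers was 3602 to 4360 with C2 and 5218 to 5912 in controls. For 2 CD8 T cell markers it was higher with C2, at 260 to 268, against 196 to 217 in controls. Their part in the result was not tested. For plasmacytoid dendritic cells, the main source of interferon alpha, Siglech was at most 8.8 on any array and the sum of 5 markers was 138 to 155 with C2 and 104 to 119 in controls. The sum of 4 dendritic cell markers was 35.1 to 48.7 with C2 and 25.5 to 30.2 in controls, and that of 6 macrophage markers 180 to 206 with C2 and 109 to 139 in controls. In bulk RNA, fewer cells of a type and less RNA per cell cannot be told apart.

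In Th17 cultures 5 of 28 members (17.9%) were lower with C2, against 8.66% of all genes. Another 3 (10.7%) were higher, a share near that of all genes (11.7%), and the median member differed by -0.06. The members that fell were Ifi209, Parp14, Trim12a, Xaf1 and Parp9. Parp14 had 72.6, 28.0 and 71.3 in Th17 cultures with C2 and 214, 172 and 185 in Th17 controls (-1.79 ± 0.29, adjusted p = 0.00131). Trim12a had 6.61, 3.56 and 14.3 with C2 and 42.2, 25.3 and 25.4 in controls (-1.69 ± 0.36, adjusted p = 0.00591). The C2 arrays of both genes lay below every control. Ifi209 had 1.47, 8.15 and 7.03 with C2 and 47.4, 18.3 and 21.3 in controls, a difference of -1.90 ± 0.45 (adjusted p = 0.0107), which no longer passed without Th17 control replicate 1 (adjusted p = 0.0565). Xaf1 differed by -1.60 ± 0.38 (adjusted p = 0.0111) and Parp9 by -0.93 ± 0.22 (adjusted p = 0.00943). With a gene's probe sets averaged, Trim12a and Xaf1 were not called in Th17 cultures, and without Th17 control replicate 1 the count of members called either way was 5.

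The members that rose in Th17 cultures were Usp18, Dhx58 and Bst2. Usp18 had 35.8, 54.2 and 33.2 with C2 and 12.9, 17.9 and 11.5 in controls (1.35 ± 0.28, adjusted p = 0.00512), and the groups were apart. Bst2 had 332, 404 and 365 with C2 and 254, 232 and 272 in controls (0.53 ± 0.13, adjusted p = 0.0138), and was not called on the signals as deposited, where it differed by 0.18 and the median of all genes by -0.29. Dhx58 had 48.3, 76.3 and 72.2 with C2 and 19.3, 23.5 and 34.8 in controls (1.26 ± 0.39, adjusted p = 0.0378); its other probe sets, both dim, differed by -0.27 and -0.22, and its call held in 4 of 10 alternative settings. The IFIT genes did not pass, with differences of -0.98 for Ifit1bl1, -0.02 for Ifit2, 0.35 for Ifit3 and 0.48 for Ifit1, and their C2 and control arrays overlapped. Irf1, at 303, 227 and 264 with C2 and 588, 341 and 328 in controls, did not pass (-0.61 ± 0.25, adjusted p = 0.0949) although its groups did not overlap. Rtp4, without the filter, differed by -1.86 ± 0.45 (adjusted p = 0.0162).

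In Th1 cultures 4 of 28 members (14.3%) were lower with C2, against 1.91% of all genes. Higher calls numbered 0 in limma, against 2.07% of all genes called higher, and the median member differed by -0.75. At an unadjusted p under 0.05, 0 members were higher, and the share of all genes higher at that level was not counted. Isg20 had 63.5 and 68.3 in Th1 cultures with C2 and 210.3 and 143 in Th1 controls (-1.36 ± 0.24, adjusted p = 0.0132). Xaf1 had 21.7 and 35.5 with C2 and 116 and 177 in controls (-2.25 ± 0.47, adjusted p = 0.0253). Trim12a had 22.4 and 10.7 with C2 and 62.1 and 76.2 in controls (-1.95 ± 0.44, adjusted p = 0.0313). No C2 array of these genes reached a control. Ifi27l2a had 685 and 160.1 with C2 and 1228 and 2109 in controls (-2.27 ± 0.50, adjusted p = 0.0292), with a wide gap between its C2 arrays. These calls rest on few arrays: the count was 0 without Th1 C2 replicate 2, 1 without Th1 control replicate 2, 2 without Th17 control replicate 3 and 7 without Th1 C2 replicate 1. Of the remaining members, 18 were below 0 and 6 above 0, none past the test; Ifit1bl1 differed by -1.36 ± 0.58 (adjusted p = 0.19) and Irf7 by -1.08 ± 0.39 (adjusted p = 0.13). Ighm moved here too, with -2.96 ± 0.45, and its part in these differences was not tested.

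**Figure D3:**
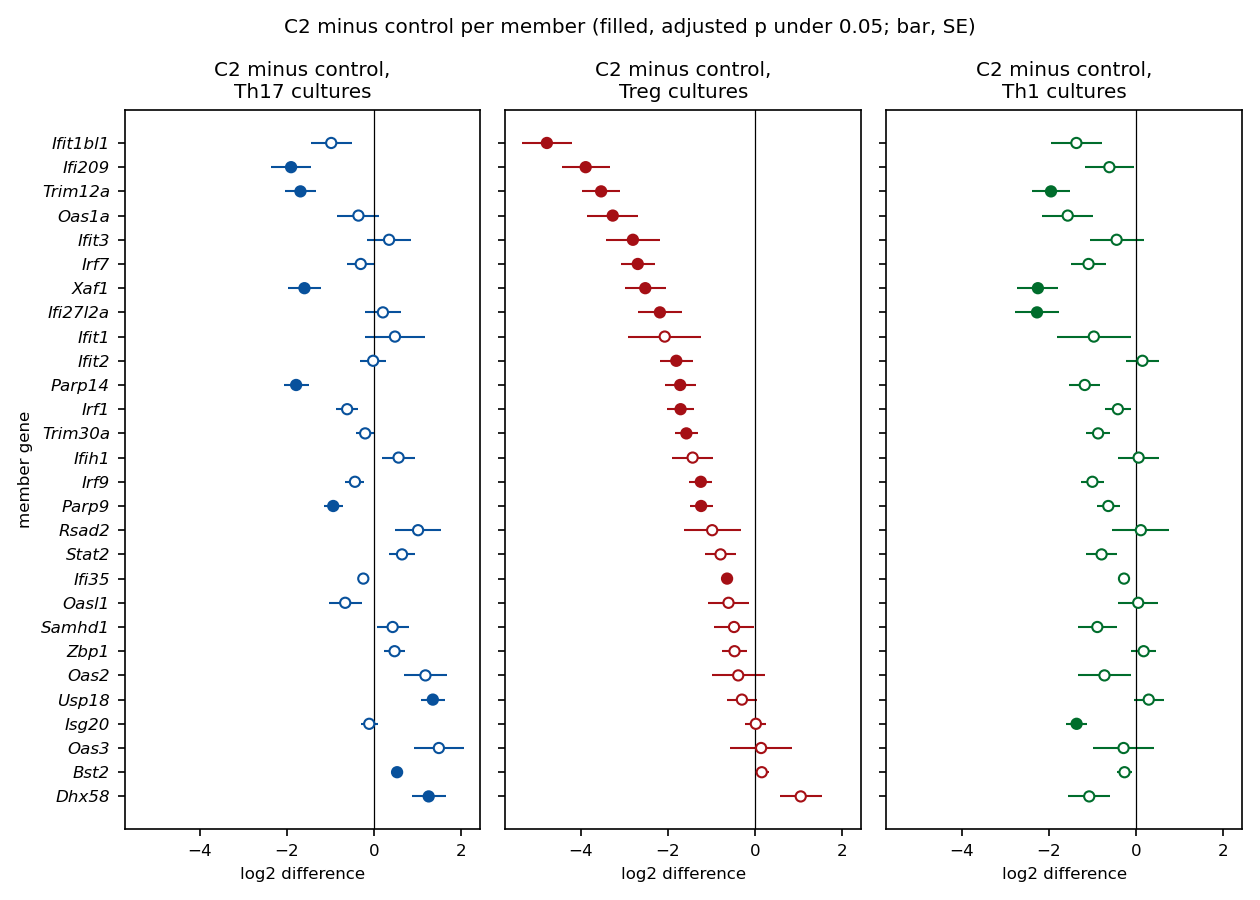
Each point is the log2 difference, C2 minus control, of 1 of the 28 members tested, with its standard error, in Th17, Treg and Th1 cultures from left to right; filled points passed at an adjusted p under 0.05. Genes are ordered by their difference in Treg cultures, which runs from -4.78 for Ifit1bl1 to 1.06 for Dhx58, while the Th17 panel has filled points on both sides of 0.

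A member lower with C2 in one subset and not called in another is not thereby shown to respond differently, so the 3 C2 effects were compared directly. An F test across the subsets called 0 of the 28 members, against 0.797% of all genes, and the smallest adjusted p was 0.0584, for Ifit1bl1. Unadjusted, 16 members had a p under 0.05 in this F test. The share of all genes at that level was not counted, so no result about the members is read from it. In a pairwise test chosen after the data had been seen, the C2 effect in Treg cultures was lower than that in Th17 cultures for 1 member, against 0.192% of all genes. This was Ifit1bl1 (difference of the effects -3.80 ± 0.75, adjusted p = 0.0481). The gene reached the filter only through the Treg control arrays, and without the filter the adjusted p was 0.0644. Against Th1 cultures the difference of its effects was -3.41 ± 0.82 (adjusted p = 0.0862). Trim12a and Xaf1 were the members called lower with C2 in all 3 subsets, by -1.69, -3.53 and -1.95 and by -1.60, -2.52 and -2.25 in Th17, Treg and Th1 cultures. With probe sets averaged, both genes lost their calls in Th17 and Th1 cultures, and the dimmer probe set of Xaf1 differed by 0.20 in Th17 and -0.09 in Th1 cultures.

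The untreated subsets were compared next. These comparisons use the same control arrays as the C2 comparisons, and as each other, so they are given side by side and are not independent. In controls, 21 of 28 members (75%) were lower in Th17 than in Treg cultures, against 6.01% of all genes, with a median of -2.02. The 5 with the lowest differences were Ifit1bl1 (-5.79 ± 0.53), Ifi209 (-4.61 ± 0.51), Ifit1 (-3.66 ± 0.77), Ifit3 (-3.65 ± 0.56) and Ifit2 (-2.86 ± 0.34), with adjusted p-values of 3.52e-05, 0.000111, 0.00776, 0.00117 and 0.000175. All 4 IFIT genes thus stood lower in Th17 than in Treg controls, though Ifit1bl1, Ifit1 and Ifit3 reached the filter only through the Treg control arrays. Ifit1bl1 had 15.3, 8.19 and 3.46 in Th17 controls and 560.4 and 649 in Treg controls, and no member showed a call the other way. Without Treg control replicate 1, 13 members were called.

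Set against Th1 controls, 6 members (21.4%) were higher in Treg controls, against 2.85% of all genes, with a median of 0.94. Ifit1bl1 had 560.4 and 649 in Treg controls and 13.7 and 21.3 in Th1 controls (4.91 ± 0.58, adjusted p = 0.000661), and Ifi209 had 717 and 724 in Treg controls and 29.2 and 56.1 in Th1 controls (4.05 ± 0.56, adjusted p = 0.00153). Irf7 (2.04 ± 0.39), Irf1 (1.93 ± 0.30), Ifit2 (1.91 ± 0.37) and Zbp1 (1.10 ± 0.29) followed, with adjusted p-values of 0.0104, 0.00326, 0.011 and 0.048. Without Treg control replicate 1, or without Th1 control replicate 1, 3 members were called, and without either Th1 C2 array 10.

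In controls 7 members (25%) were lower in Th17 than in Th1 cultures, against 3.62% of all genes. Usp18 stood out, with 12.9, 17.9 and 11.5 in Th17 controls and 254 and 171 in Th1 controls (-3.65 ± 0.31, adjusted p = 2.16e-05). Xaf1 (-1.97), Ifih1 (-1.70), Dhx58 (-1.64), Isg20 (-1.29), Trim30a and Bst2 were the others. This split depends on the scaling: on the signals as deposited, where the median of all genes was 0.62 higher in Th17 controls, 2 members were higher and 1 was lower. Without Th17 control replicate 2 or Th1 control replicate 2, 3 members were called, and without Th17 control replicate 3, 4.

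With C2 present, 4 calls were made between subsets. Lower in Th17 than in Treg cultures were 2 members (7.14%), against 0.495% of all genes: Isg20, with 51.1, 77.2 and 66.6 in Th17 and 321 and 296 in Treg cultures (-2.21 ± 0.22, adjusted p = 0.000355), and Ifi209, with 1.47, 8.15 and 7.03 in Th17 and 25.8 and 80.2 in Treg cultures (-2.62 ± 0.51, adjusted p = 0.0261). The median member differed by -0.55. Between Th17 and Th1 cultures with C2, Usp18 was the 1 member lower in Th17 (-2.59 ± 0.31, adjusted p = 0.000581), against 2.02% of all genes. Between Treg and Th1 cultures with C2, Isg20 was the 1 member higher in Treg (2.18 ± 0.24, adjusted p = 0.00172), against 1.05% of all genes, with 321 and 296 in Treg and 63.5 and 68.3 in Th1 cultures. Leaving out single arrays gave 1 to 3, 1 to 3 and 1 to 4 calls in these comparisons. Whether the subsets differ less with C2 than without was not tested beyond the F test above.

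Of 15 genes listed for the interferons themselves, 6 have no probe set that carries only their symbol and could not be assessed. Among the others, the 7 type I genes Ifnb1, Ifna1, Ifna2, Ifna4, Ifna5, Ifna11 and Ifnab lay below the filter. Their highest signal was 17.4, for Ifna1 in a Treg culture with C2. Ifnb1, which encodes interferon beta, had 9.10 and 3.28 in Treg cultures with C2 and 9.29 and 11.5 in Treg controls. Ifnz, another type I interferon gene, had 45.2 and 61.6 with C2 and 58.7 and 75.7 in Treg controls and was called in no C2 comparison. Ifng, which encodes interferon gamma, had 8168 and 11805 in Th1 cultures with C2 and 2987 and 887 in Th1 controls. In Treg cultures it had 3856 and 1720.3 with C2 and 1092 and 1244 in controls. The part of interferon gamma in the members' pattern was not tested. No C2 difference of Ifng passed.

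Of the receptor chains and kinases, 9 passed the filter, Ifnlr1 only just, and 3 of the 9 (33.3%) were lower with C2 in Treg cultures, against 5.44% of all genes. Ifnar1, the signalling chain of the type I receptor, had 109 and 133 in Treg cultures with C2 and 306 and 276 in Treg controls (-1.25 ± 0.24, adjusted p = 0.00537). Il10rb, a chain shared by the receptors for IL-10 and interferon lambda, differed by -0.95 ± 0.23 and Jak1 by -0.86 ± 0.18. Ifnar2 had 269 and 372 with C2 and 397 and 396 in controls, and Tyk2 had 151 and 166 with C2 and 137 and 116 in controls; neither passed. None of the 9 was called by limma with C2 in Th17 or Th1 cultures, with 4 at an unadjusted p under 0.05 in each. Of all 10916 genes, 3767 reached that level in Th17 cultures and 2397 in Th1 cultures. Treg controls also had more Ifnar1 than Th1 controls (1.28 ± 0.24), while Th17 controls had less than Treg controls (-1.93 ± 0.22).

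**Figure D4:**
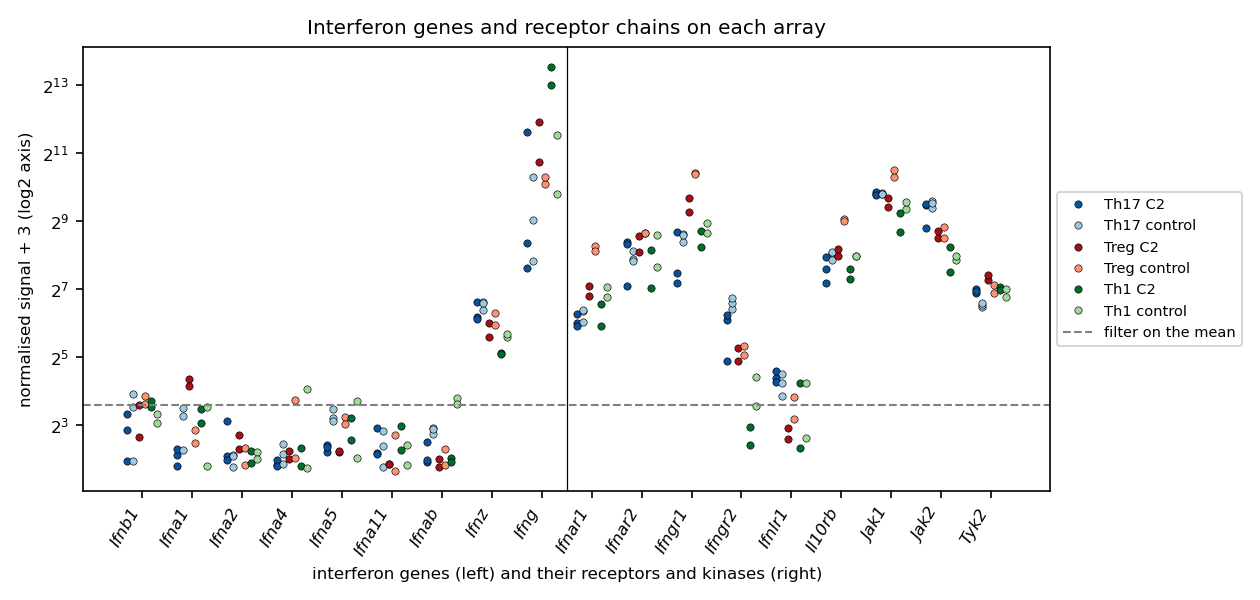
Points are the normalised signal plus 3, on a log2 axis, of 9 interferon genes (left of the line) and 9 receptor chains and kinases (right) on each of the 14 arrays, coloured by group; the dashed line is the filter on a gene's mean. The 7 type I genes from Ifnb1 to Ifnab scatter around or under the line in every group, and Ifnar1 is highest in the Treg controls.

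Other type I response genes were drawn from a separate list of 34, of which 24 were tested. This list too was chosen with earlier results of these data known, so its counts are no independent support. In Treg cultures 8 of the 24 (33.3%) were lower with C2, against 5.44% of all genes, and 1 (4.17%) was higher, a share below that of all genes (7.04%). Those that fell include Uba7, which activates ISG15 for conjugation (51.6 and 55.9 with C2, 204 and 217 in controls, -1.91 ± 0.34), Trim34a (-2.01 ± 0.37), Trim25 (-1.38 ± 0.20) and Adar, an RNA-editing enzyme (-1.05 ± 0.21). Ifitm2, which hinders viral entry, rose (0.93 ± 0.17) and rose in Th17 cultures as well (1.23 ± 0.14). In Th17 cultures 6 of the 24 (25%) fell, against 8.66% of all genes, Uba7 and Nmi by -1.56 and -1.54. Another 5 (20.8%) rose, against 11.7% of all genes, among them Epsti1 (1.45 ± 0.27), Sp100 (0.88 ± 0.25) and Ly6e (0.72 ± 0.14). Epsti1 also passed the F test across subsets (adjusted p = 0.0442), with an effect of 1.45 in Th17 cultures, -0.94 in Treg cultures and -0.02 in Th1 cultures. In Th1 cultures Uba7 was the 1 gene called, at -1.65, against 1.91% of all genes called lower.

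Genes of the interferon gamma response, which handle antigen presentation among other tasks, were counted the same way over the 14 tested. With C2, 6 (42.9%) were lower in Th17 cultures, against 8.66% of all genes, and 1 (7.14%) was higher, a share below that of all genes (11.7%). In Treg cultures 4 (28.6%) were lower, against 5.44%, and in Th1 cultures 3 (21.4%) were lower, against 1.91%. Psmb10, a subunit of the immunoproteasome, differed by -1.69 ± 0.26 in Th17 and -1.63 ± 0.32 in Treg cultures. Tap2, part of the peptide transporter, was called in each subset, with differences of -0.71 in Th17 cultures, -0.99 in Treg cultures and -0.72 in Th1 cultures. Among sensing genes, Ikbke, a kinase upstream of IRF3 and IRF7, was lower with C2 in all 3 subsets, by -1.34 (Th17), -2.11 (Treg) and -1.88 (Th1), and Sting1 in Th17 (-0.89) and Treg cultures (-1.26). Of 9 negative regulators, 1 (11.1%), Socs1, fell in Th17 cultures (-1.21 ± 0.18), a share near that of all genes (8.66%). In Treg cultures 2 (22.2%), Nlrc5 and Irf2bp1, fell (-0.95 and -1.11), against 5.44% of all genes. Of 5 further interferon regulatory factors, 2 (40%), Irf4 and Irf8, fell in Th17 cultures (-0.81 and -0.78), against 8.66% of all genes. For these factors limma called 0 in Treg and 0 in Th1 cultures, with 0 at an unadjusted p under 0.05 in either. Of all genes, 12.5% and 3.98% were called there in either direction. At the unadjusted level, 2949 of all 10916 genes passed in Treg cultures and 2397 in Th1 cultures.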

How the data were processed

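Affymetrix arrays were hybridised with total RNA, as the labels' protocols state. The deposited values are 1 linear signal intensity per probe set and array, which the submitters' processing notes credit to MAS5; neither the version nor the target value is given. From these intensities, log2(signal + 3) was quantile normalised over all 45101 probe sets; the pseudocount is near the 25th percentile (2.90) of all values. Probe sets with 1 symbol in the platform annotation (34945) were kept, each gene took its probe set with the highest mean over 14 arrays, and those whose mean reached the 40th percentile (a signal of about 9.11) were tested. limma 3.58.1 (R 4.3.3; eBayes with trend) fitted 6 group means with 8 residual degrees of freedom, and calls are at an adjusted p under 0.05. The code was tested on simulated data.

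Members and gene lists were chosen with earlier results of these data known. The text gives all members called with C2 (arrays in full for at most the 10 largest differences per subset and for bright members of each role), the 5 largest differences between subsets, and list genes called with C2 or among the largest of their list. Labels give no batch, so one that coincides with a group cannot be told apart from it. The main fit did not pair arrays by replicate number. Deviations of same-numbered arrays correlated at -0.159 to 0.16 (0.152, 0.16 and -0.063 in Th17 cultures), and those of differently numbered arrays at -0.193 to 0.159. With 2 arrays a group the Treg and Th1 values mirror each other by construction, so this check cannot settle whether arrays were paired. Alternatives were the scaling, pseudocount, filter, averaging of probe sets, trend, replicate block and leaving out each array.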

Additional observations from a re-analysis of the deposited data

Results flagged for a closer look

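Ifit1bl1 was flagged because it passed a pairwise test of C2 effects between subsets that was chosen after the data had been seen. The F test across subsets did not call it (adjusted p = 0.0584). It reached the filter only through the Treg control arrays, which also enter the pairwise difference. In that pairwise test the effect in Treg minus that in Th17 cultures was -3.80 on the log2 scale (adjusted p = 0.0481, and 0.0644 without the filter). Its adjusted p ranged from 0.0058 to 0.252 over the alternatives, the highest without Treg C2 replicate 1, and the difference was below 0 in all of them.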

How the results depend on the processing

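In Treg cultures the number of members called lower with C2 was 7 with the filter at the 60th percentile, where 13 members are tested, and 6 to 16 when single arrays were left out (6 without Treg control replicate 1). In Th17 cultures 5 members were called with that filter (3 higher, 2 lower) and 5 with probe sets averaged, and 5 to 9 with arrays left out. In Th1 cultures 2 were called on the signals as deposited and 2 with probe sets averaged, and 0 to 7 with arrays left out. Between Th17 and Treg controls 10 were called with the stricter filter, and 13 to 23 with arrays left out. Between Th17 and Th1 controls 3 were called as deposited (2 higher, 1 lower), 4 with probe sets averaged and 4 with a replicate block, and 3 to 9 with arrays left out. Between Treg and Th1 controls 11 were called with the pseudocount at the median of all values and 2 with the stricter filter, and 3 to 10 with arrays left out. With C2, Th17 against Treg gave 1 with the stricter filter and 1 with a replicate block (1 to 3 with arrays left out), Th17 against Th1 gave 2 with a pseudocount of 1 and 2 with probe sets averaged (1 to 3), and Treg against Th1 gave 2 as deposited and 2 with the median pseudocount (1 to 4). The F test called 1 member as deposited and 4 with the median pseudocount (0 to 5). The pairwise test of Treg against Th17 effects called 4 with the median pseudocount and 0 with trimmed-mean scaling, median centring, a pseudocount of 1, no filter, the stricter filter, no trend or a replicate block (0 to 3). The cause of these changes was not tested, save that the stricter filter tests fewer members and a left-out array leaves fewer samples. On the signals as deposited the median of all genes differed by -0.29, -0.13 and 0.23 with C2 in Th17, Treg and Th1 cultures. The replicate block changed no other count by over 1.5 times, and crossing the numbers of the Th1 C2 arrays, chosen after seeing the data, left 4 calls in Th1 cultures. No member called with C2 changed direction under any alternative.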
